A study of Homo sapiens with 18 samples.

Results

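The 28 genes described here encode enzymes of cholesterol synthesis, the sensors that control it, and proteins that move, store or export sterol. They were chosen by symbol from a list of pathway genes, out of 59421 distinct symbols in the deposited tables, and all 28 were found once in each of the 4 tables. The libraries came from 2 established human cell lines of multiple myeloma, a plasma cell cancer: H929 and MM1S. The study perturbed RBM39, an RNA-binding protein of pre-mRNA splicing. In H929, 3 libraries labelled scramble (a control hairpin) stood against 3 labelled shRBM39 (a hairpin against RBM39). MM1S cells gave 2 libraries with scramble and 2 with shRBM39, and a separate set of 3 given the solvent DMSO and 3 given indisulam, a sulfonamide that makes the DCAF15 ubiquitin ligase degrade RBM39 protein. Another 2 MM1S libraries held RNA pulled down with an antibody to RBM39 or with control IgG (RNA immunoprecipitation, RIP). The labels give no dose, no time and no hairpin sequence, and do not say whether the numbered MM1S shRBM39 libraries are different hairpins. Nothing in them says that replicates were grown as separate cultures, so each p-value covers only the spread among these libraries, which may be technical. All of these are bulk libraries, in which fewer cells of a kind and less RNA per cell cannot be told apart.

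Cells make cholesterol from acetyl-CoA through mevalonate, isoprenoid units, squalene and lanosterol. When sterol in the endoplasmic reticulum is low, SCAP carries the transcription factor precursor SREBP2 (gene SREBF2) to the Golgi, where proteases release its active part, and the enzyme genes are switched on together. When sterol is plentiful, INSIG proteins hold SCAP in the endoplasmic reticulum, and the same genes are turned down. Because INSIG1 is itself a target of SREBP2, its transcript is widely used as a readout of the pathway. Isoprenoids from the same route also feed protein prenylation, dolichol for glycosylation and ubiquinone, which matter to a cell that secretes as much protein as a plasma cell does.

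RBM39 transcript fell in the MM1S knockdown, from 205 and 176 TPM (transcripts per 1000000) to 64.8 and 52.2 TPM, and did not pass the test with indisulam, which acts on the protein. There it was at 178 to 196 TPM in DMSO. Indisulam replicates 1 and 2 lay above that range, at 226.5 and 217 TPM, and replicate 3 below it, at 149 TPM. In H929 it was at 4.43 to 4.56 FPKM (fragments per kilobase and per 1000000 mapped fragments) in libraries labelled scramble and 35.6 to 38.6 FPKM in those labelled shRBM39, opposite to the labels, so H929 groups are named as labelled and their differences are not read as effects of knockdown. All 8 plasma cell markers were at 1 or more in every H929 and knockdown library, and 7 of 8 in the indisulam table. Their sum moved with the groups, at 2554 to 2714 against 3968 to 4188 FPKM in H929, control first. It was 1772 to 1945 against 2077 to 3053 TPM in the knockdown and 3448 to 3625 against 2895 to 3112 TPM with indisulam. Summed T cell markers moved with the groups, at 39.3 to 47.1 against 15.7 to 18.5 FPKM in H929, 4.66 to 5.73 against 0.930 to 1.65 TPM in the knockdown and 3.10 to 4.29 against 0.970 to 1.51 TPM with indisulam, control first. At 1 or more in every library were 1 of the 3 T cell markers in H929 and 0 in MM1S, where CD3D was listed at 0 throughout. Macrophage markers summed to 24.8 to 26.5 against 13.3 to 14.5 FPKM in H929, 15.9 to 21.0 against 5.64 to 9.75 TPM in the knockdown and 9.38 to 10.6 against 6.90 to 8.12 TPM with indisulam, with 1 of 3 at 1 or more throughout. B cell markers summed to at most 3.24, epithelial markers to 6.1, fibroblast markers to 2.38 and hepatocyte markers to 0.747 in any library. The part of these markers in the sterol gene results was not tested. Indisulam replicate 3 stood apart: across the genes tested it correlated with the other indisulam libraries at r = 0.958 and 0.964, against 0.987 between those libraries, and with the DMSO libraries at 0.949 to 0.950, against 0.910 to 0.927 for the others. The calls and the main values are therefore also given without it.

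In MM1S treated with indisulam, the pathway was lower along most of its length. Of the 28 genes, 14 fell and 0 rose in limma's test (called at an adjusted p below 0.05 over all genes of the table), beside 21.5% of all 13445 genes tested that fell and 8.47% that rose (29.9% in either direction). The median log2 difference of the 28 was -0.68, beside -0.051 for all genes tested, and -0.59 beside 0.10 without indisulam replicate 3. The groups did not overlap for 19 of the 28, all lower, beside 47.3% of all genes (32.3% lower, 14.9% higher). After median scaling 17 of the 28 fell and 0 rose, beside 22% and 19.3% of all genes (41.3% in all). All 28 genes together summed to 1586 to 1622 TPM in DMSO and to 960, 992 and 791 TPM in indisulam replicates 1, 2 and 3, with no overlap. EBP fell 3.28-fold, ACAT2 2.99-fold, HSD17B7 2.86-fold and INSIG1 2.62-fold, as ratios of mean TPM.

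In the MM1S knockdown, 5 of 28 fell (ACAT2, FDPS, HSD17B7, LBR and SOAT1) and 0 rose, beside 6.35% of 14152 genes tested that fell and 3.97% that rose (10.3% in all). The median of the 28 was -0.55, beside -0.00075 for all genes, and the members summed to 1198 and 1321 TPM with scramble and 702 and 933 TPM with shRBM39. Both shRBM39 libraries lay below both scramble libraries for 20 of the 28 genes and above them for 3, beside 31.9% and 30.5% of all genes (62.4% in all). The calls are fragile: without scramble replicate 1, scramble replicate 2 or shRBM39 replicate 2, 0 of the 28 and 0 of all genes passed, and without shRBM39 replicate 1, 4 passed (LBR, IDI1, FDFT1 and EBP, all lower), beside 3.07% of 15130 genes (2.43% lower, 0.648% higher). At an unadjusted p below 0.05, 13 of the 28 passed, beside 32.2% of all genes. ACAT2, FDPS and HSD17B7 fell in both MM1S comparisons, which are 60% of the 5 and 21.4% of the 14. The share of all genes that fell in both was not computed, so this overlap is not read as a result about the members.

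H929 had 14 members higher and 9 lower where the label was shRBM39, beside 24.1% of 10360 genes tested that were higher and 48.1% that were lower (72.2% in all). The share of the 28 that passed at all, 82.1%, was near that of all genes. The 14 include STARD4, which met the filter on low values (1 FPKM or more in 3 libraries) only through the shRBM39 group. Values of the 2 groups did not overlap for 16 genes on the higher and 9 on the lower side, beside 25.1% and 49.6% of all genes (74.7% in all). The split between directions depends on scaling. The median of all genes tested was -0.13 as deposited, -0.29 with column totals set to 1000000 and 0.03 after median scaling, so H929 differences below are also given relative to the deposited median. After median scaling 17 members were higher and 4 lower, beside 38% and 32% of all genes (69.9% in all). With equal column totals 11 were higher and 12 lower, beside 16.2% and 60.6% of all genes (76.7% in all), and DHCR7 (-0.26, limma adjusted p = 0.00192), GGPS1 (-0.27, limma adjusted p = 0.0418) and SREBF2 joined the lower side. For 14 members the groups lay apart in both lines and in opposite order in H929 and the MM1S knockdown, beside 33.6% of 9496 genes tested in both (14.3% higher in H929 and lower in MM1S, 19.4% the reverse). For 7 members they lay apart in the same order, beside 14.8% of those genes. The difference between lines was not tested. The members summed to 842 to 856 FPKM in scramble and 993 to 1005 FPKM in shRBM39 libraries. Column totals were higher too, at 374511 to 374807 in scramble and 409102 to 428099 FPKM in shRBM39 libraries. The sum also rests largely on PMVK and FDPS, with means of 304 against 387 and 143 against 200 FPKM, so it is not read as a rise of the pathway.

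**Figure D1:**
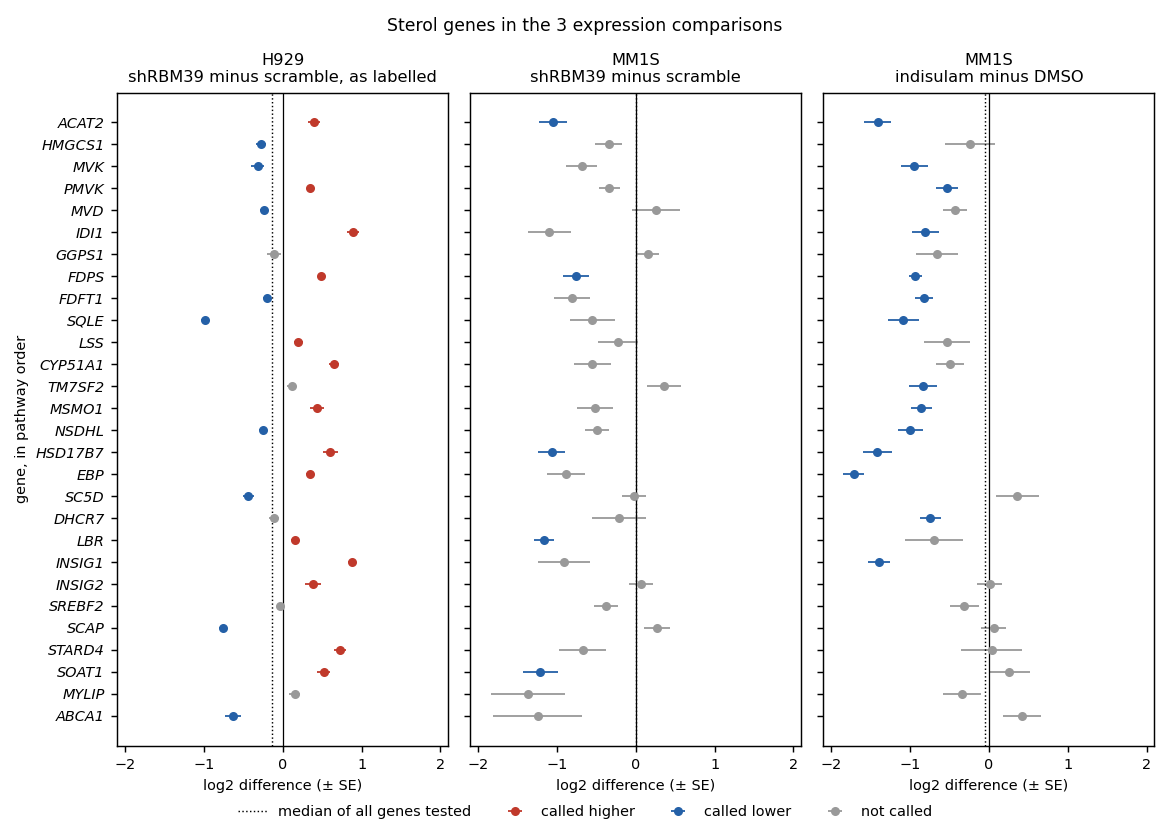
Log2 difference (x axis, on the log2(value + 1) scale, bars ± SE) of each of the 28 genes in pathway order (y axis), in H929 (3 against 3 libraries), the MM1S knockdown (2 against 2) and MM1S with indisulam (3 against 3). Red and blue points passed limma's test as higher and lower, grey did not, and the dotted line is the median of all genes tested: with indisulam the blue points run through most of the synthesis steps, whereas in H929 neighbouring steps lie on both sides of 0.

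The first steps join acetyl-CoA units and phosphorylate mevalonate. ACAT2, the cytosolic thiolase that starts the route, was at 15.1, 13 and 16 TPM in DMSO and 5.04, 5.58 and 4.15 TPM with indisulam. The groups were far apart, with a log2 change of -1.41 (adjusted p = 0.00134 by limma, SE 0.172). In the knockdown ACAT2 fell from 15.4 and 13 TPM to 6.82 and 5.86 TPM, a change of -1.05 (adjusted p = 0.0306 by limma, SE 0.178). H929 libraries labelled shRBM39 were higher, at 6.82, 6.18 and 6.8 against 4.31, 4.73 and 5.37 FPKM, a difference of 0.39 (adjusted p = 4.21e-04 by limma, SE 0.0759), or 0.53 relative to all genes. MVK, mevalonate kinase, fell with indisulam from 10.6, 11.3 and 10.1 TPM to 4.21, 5.98 and 5.1 TPM, a change of -0.95 (adjusted p = 0.00687 by limma, SE 0.174). Knockdown libraries had 7.9 and 6.55 against 4.31 and 3.89 TPM (limma adjusted p = 0.0808). Its H929 level was lower with shRBM39, at 8.4, 6.41 and 7.02 against 9.36, 8.86 and 9.57 FPKM, a difference of -0.32 (adjusted p = 0.00317 by limma, SE 0.0806), or -0.18 relative to all genes.

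PMVK, the kinase that adds the second phosphate, was the most abundant member in H929, at 302, 302 and 308 FPKM in scramble and 388, 387 and 386 FPKM in shRBM39 libraries, a difference of 0.35 (adjusted p = 1.59e-06 by limma, SE 0.0361), or 0.48 relative to all genes. The 3 shRBM39 values lay within 2 FPKM of each other. With indisulam PMVK fell from 122, 138 and 129.7 TPM to 74.1, 90.2 and 107 TPM, a change of -0.53 (adjusted p = 0.0267 by limma, SE 0.14), with the smallest decrease in replicate 3. That call was lost on leaving out any 1 library other than indisulam replicate 3 (-0.40 without indisulam replicate 1, for example) and after median scaling (limma adjusted p = 0.155). Its knockdown values were 88.2 and 83.2 TPM against 72.5 and 62.9 TPM (limma adjusted p = 0.154). HMGCS1, which makes the precursor of mevalonate, did not pass in either MM1S comparison, at 16.3 to 18.5 against 8.14 to 21.3 TPM with indisulam and 34.4 to 36.8 against 24.4 to 31.7 TPM in the knockdown. Its H929 level was lower, 6.91 to 7.63 against 8.65 to 9.62 FPKM (-0.28, limma adjusted p = 0.00167). MVD, the decarboxylase that ends this arm, was lower in H929 (-0.23, limma adjusted p = 7.51e-04) and did not pass in MM1S. After median scaling neither of these 2 genes, nor MVK, was called in H929.

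IDI1, GGPS1 and FDPS handle the isoprenoid units. FDPS, which makes farnesyl diphosphate, was the most abundant member in both MM1S tables. It fell with indisulam from 413, 424 and 414 TPM to 219, 234 and 202 TPM, a change of -0.93 (adjusted p = 3.90e-04 by limma, SE 0.0802) with little spread in either group. It also fell in the knockdown, from 324 and 281 TPM to 201 and 159 TPM, a change of -0.76 (adjusted p = 0.0487 by limma, SE 0.162). That call was lost with a pseudocount of 0.1 (limma adjusted p = 0.0515), plain limma (0.0803), no filter (0.147), the replicate block (0.0713) and any library left out (0.0629 to 0.328). H929 showed the reverse order, 141, 147 and 142 FPKM in scramble and 209, 193 and 199 FPKM in shRBM39 libraries, a difference of 0.48 (adjusted p = 2.65e-07 by limma, SE 0.0414), or 0.62 relative to all genes. IDI1, the isomerase that interconverts the 5-carbon units, had the largest H929 difference among the members called higher on this scale (with a pseudocount of 0.1 STARD4 had 1.14 and IDI1 1.11), at 2.58, 2.61 and 2.28 against 6.22, 5.2 and 5.05 FPKM, which is 0.89 (adjusted p = 4.08e-07 by limma, SE 0.0802) and 1.03 relative to all genes. With indisulam it fell from 50.0, 46.6 and 48 TPM to 30.8, 31.7 and 20.5 TPM, a change of -0.80 (adjusted p = 0.0139 by limma, SE 0.175), a call lost on leaving out any 1 DMSO library (log2 -0.78, -0.83 and -0.81 without replicates 1, 2 and 3). Without indisulam replicate 3 it was called, at -0.61. The knockdown libraries had 47.5 and 42.7 against 27.1 and 15.4 TPM, a difference of -1.10 that missed the threshold (limma adjusted p = 0.0631). GGPS1, which makes the geranylgeranyl donor for prenylation, passed in none of the 3 comparisons as deposited. It was at 5.55 to 12.4 TPM with indisulam against 13.7 to 15.3 TPM, at 13.6 to 14.2 against 11.9 to 12.9 TPM in the knockdown, and at 1.36 to 1.9 against 1.65 to 2.01 FPKM in H929.

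FDFT1, SQLE and LSS commit the carbon to sterol. FDFT1, squalene synthase, fell with indisulam from 103, 97.8 and 105 TPM to 62.1, 60.4 and 49.7 TPM, a change of -0.82 (adjusted p = 0.00204 by limma, SE 0.111). It was lower in H929 too, at 19.1, 19 and 18.1 against 21.6, 22.2 and 21.5 FPKM, a difference of -0.21 (adjusted p = 0.00197 by limma, SE 0.049), or -0.072 relative to all genes, and was not called there after median scaling. Its knockdown values were 84.3 and 77.8 against 57.3 and 36.5 TPM (limma adjusted p = 0.0818). SQLE, the squalene epoxidase and a rate-controlling step, was low in MM1S and fell with indisulam from 5.54, 5.39 and 5.07 TPM to 2.53, 2.2 and 1.36 TPM, a change of -1.08 (adjusted p = 0.007 by limma, SE 0.199). It had the largest negative difference of all members in H929, where 24.4, 25.4 and 24.9 FPKM in scramble stood against 11.8, 12.5 and 12.1 FPKM in shRBM39 libraries, -0.98 (adjusted p = 2.40e-09 by limma, SE 0.0504) or -0.85 relative to all genes. The H929 groups were tight and far apart, while the knockdown values, 6.41 and 4.7 against 4.47 and 2.6 TPM, did not pass (limma adjusted p = 0.25). LSS, which cyclises the chain to lanosterol, was higher in H929 (0.20, limma adjusted p = 0.00558) and passed in neither MM1S comparison as deposited. After median scaling it was called lower with indisulam. With equal column totals LSS was no longer called in H929.

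**Figure D2:**
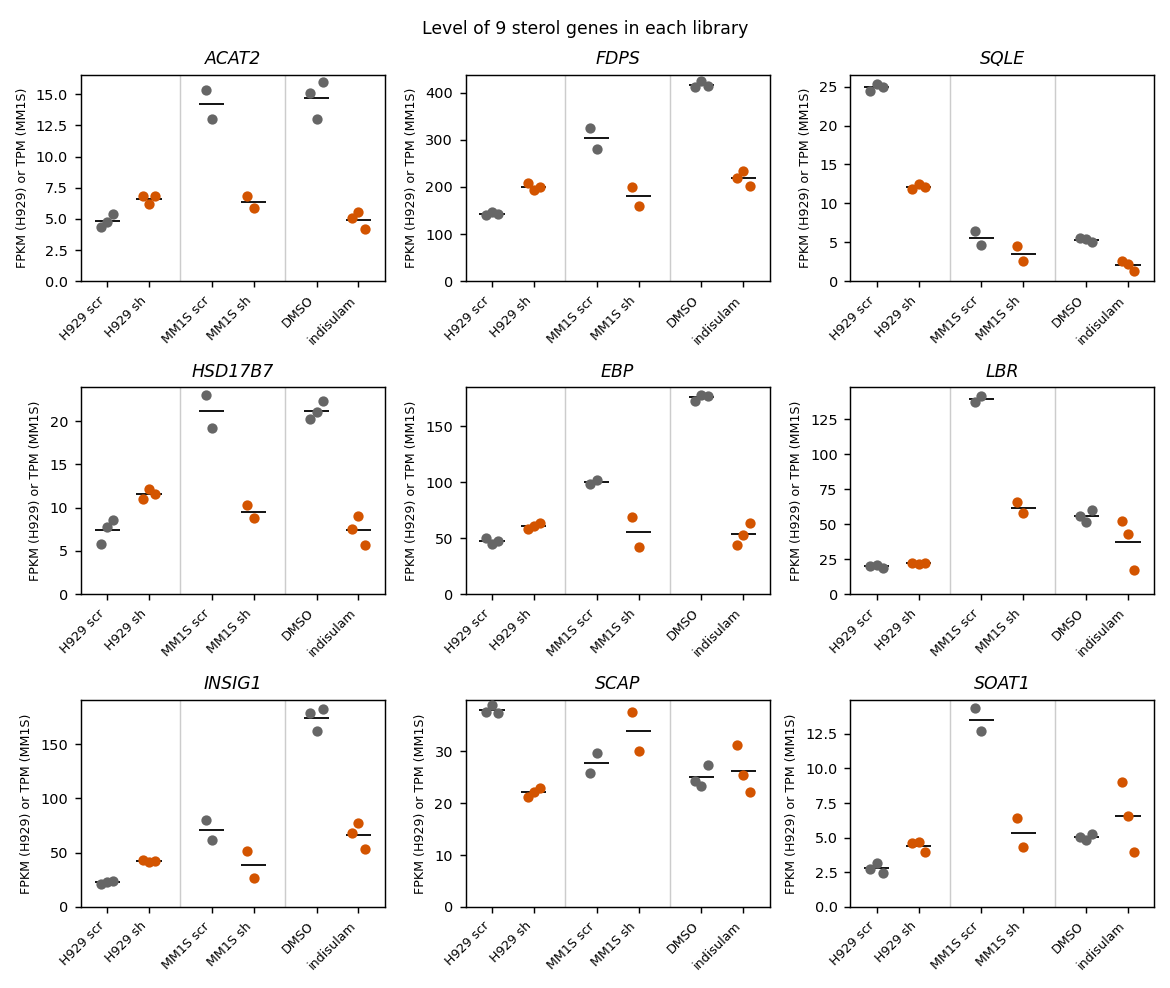
Level of 9 genes in each library (y axis from 0, FPKM for H929 and TPM for MM1S), with points for single libraries, a line at each group's mean, control groups in grey and perturbed groups in orange. FDPS, HSD17B7 and ACAT2 lie lower in both perturbed MM1S groups and higher in H929 shRBM39 libraries. The third indisulam point is the lowest of its group for every gene drawn except EBP, where it is the highest.

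Of the 9 genes that turn lanosterol into cholesterol, 6 fell and 0 rose with indisulam, beside 21.5% and 8.47% of all genes tested. EBP, the sterol isomerase, had the largest decrease of all 28, from 172, 178 and 177 TPM in DMSO to 44.2, 53.1 and 63.2 TPM, a change of -1.71 (adjusted p = 2.83e-04 by limma, SE 0.133). Its knockdown values were 98.1 and 102 TPM against 68.9 and 42 TPM, a difference of -0.88 (limma adjusted p = 0.0784). H929 shRBM39 libraries were higher, 58, 60.6 and 63.5 against 50.4, 44.9 and 47.8 FPKM, a difference of 0.34 (adjusted p = 5.13e-05 by limma, SE 0.0517), or 0.48 relative to all genes. HSD17B7, a ketoreductase of the demethylation complex, fell with indisulam from 20.2, 21 and 22.4 TPM to 7.57, 9.04 and 5.67 TPM, a change of -1.42 (adjusted p = 0.00181 by limma, SE 0.185). In the knockdown it fell from 23 and 19.2 TPM to 10.3 and 8.75 TPM, a difference of -1.07 (adjusted p = 0.0283 by limma, SE 0.174). H929 had the opposite order, 11, 12.1 and 11.6 against 5.8, 7.73 and 8.54 FPKM, 0.61 (adjusted p = 1.36e-04 by limma, SE 0.101) or 0.74 relative to all genes. Reads of its pseudogene HSD17B7P2, listed at up to 2.02 TPM in MM1S, may be shared with it.

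NSDHL, the dehydrogenase of the same complex, fell with indisulam from 24.2, 23.7 and 25 TPM to 9.95, 11.3 and 14.1 TPM, a change of -1.0 (adjusted p = 0.00391 by limma, SE 0.159). It was also lower in H929, 28.5, 29.1 and 27.5 against 33.2, 33.2 and 35.2 FPKM, a difference of -0.25 (adjusted p = 3.97e-04 by limma, SE 0.0476), or -0.11 relative to all genes, and lost that call after median scaling. In the knockdown it was at 18.7 and 17.7 against 13.5 and 11.7 TPM (limma adjusted p = 0.0952). MSMO1, the methyl oxidase that acts before it, fell with indisulam from 36.3, 32.6 and 29.8 TPM to 18.4, 18.2 and 16.5 TPM, a change of -0.85 (adjusted p = 0.00307 by limma, SE 0.129). In H929 it went the other way, 9.88, 8.74 and 8.54 against 6.8, 7.18 and 5.46 FPKM, 0.43 (adjusted p = 6.07e-04 by limma, SE 0.0872) or 0.57 relative to all genes. The knockdown values of MSMO1, 36.9 and 29.8 against 27.7 and 18.9 TPM, did not pass (limma adjusted p = 0.184). DHCR7, the last reductase, fell with indisulam, at 19.1 to 23.9 TPM against 33.7 to 38.8 TPM (-0.74, limma adjusted p = 0.00583), and passed in neither of the other comparisons as deposited. CYP51A1, the lanosterol demethylase, was higher in H929, at 18.3 to 19.7 against 11.1 to 12.3 FPKM (0.65, limma adjusted p = 4.26e-07), and passed in neither MM1S comparison as deposited.

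LBR and TM7SF2 encode enzymes for the same step, reduction of the C14 double bond, and LBR also anchors heterochromatin at the nuclear envelope. LBR fell in the knockdown from 137 and 141 TPM to 66 and 57.6 TPM, a change of -1.16 (adjusted p = 0.0156 by limma, SE 0.129). TM7SF2 did not pass there, at 9.07 and 9.14 TPM against 14.4 and 9.81 TPM (limma adjusted p = 0.319). The log2 ratio of LBR to TM7SF2 within each library was 3.92 and 3.95 with scramble and 2.19 and 2.55 with shRBM39. In the indisulam set it was 1.53 to 2.11 with DMSO and 2.55, 2.56 and 1.14 in indisulam replicates 1, 2 and 3. In H929 it was 0.417 to 0.704 with scramble and 0.587 to 0.628 with shRBM39, so the groups overlapped in these other comparisons. With indisulam the pattern differed: TM7SF2 fell from 12.9, 17.7 and 14.8 TPM to 8.88, 7.23 and 7.88 TPM (-0.84, limma adjusted p = 0.0111), a call lost without DMSO replicate 2 (-0.72) or 3 (-0.85). LBR was at 55.5, 51.2 and 60.3 TPM in DMSO and 52.1, 42.6 and 17.3 TPM with indisulam, did not pass (limma adjusted p = 0.191), and was low mainly in replicate 3. In H929, LBR was at 20.1, 20.4 and 18.7 against 22.3, 21.8 and 22.2 FPKM, a difference of 0.16 (adjusted p = 0.0148 by limma, SE 0.0515), or 0.29 relative to all genes. It lost the call with equal column totals or without scramble replicate 3 (0.12). SC5D, the desaturase, was the synthesis gene with a positive difference under indisulam, 6.48 to 13.5 against 7.13 to 8.76 TPM, and did not pass there or in the knockdown. In H929 SC5D was lower, at 4.38 to 4.9 against 5.87 to 6.88 FPKM (-0.44, limma adjusted p = 1.33e-04).

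Among the 4 genes that control SREBP2, INSIG1 had the largest difference as deposited in each comparison. With equal column totals SCAP (-0.93) exceeded INSIG1 (0.74) in size in H929. INSIG1 was at 179, 162 and 182 TPM in DMSO and 68.2, 77.6 and 53.5 TPM with indisulam, a change of -1.39 (adjusted p = 7.34e-04 by limma, SE 0.143). H929 libraries labelled shRBM39 had more, 42.9, 41.5 and 42.7 against 21.2, 22.7 and 24 FPKM, a difference of 0.88 (adjusted p = 8.64e-09 by limma, SE 0.052), or 1.01 relative to all genes. Knockdown values were 80.0 and 61.7 TPM against 51.3 and 26.6 TPM and did not pass (limma adjusted p = 0.13). Its paralog INSIG2 was at 18.6 to 21.8 TPM in DMSO and 16.7 to 22.6 TPM with indisulam and did not pass (limma adjusted p = 0.968). The log2 ratio of INSIG1 to INSIG2 within a library was 2.90 to 3.26 in DMSO and 1.59 to 1.87 with indisulam, with no overlap, and 1.68 in indisulam replicate 3. It was 2.09 and 2.26 against 0.772 and 1.59 in the knockdown, and 2.70 to 2.98 against 2.88 to 3.58 in H929, where the groups overlapped and the order was the reverse. INSIG2 was higher in H929 (0.38, limma adjusted p = 0.00573), with its 3 shRBM39 libraries spread over 3.59 to 5.62 FPKM, and was not called there with equal column totals.

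SREBF2 itself was at 45.2 to 48.6 FPKM in H929 scramble and 45.3 to 46.4 FPKM in shRBM39 libraries, 79.2 and 63.2 against 54.2 and 53.8 TPM in the knockdown and 85.2, 80.3 and 83.9 against 77.7, 78.7 and 48.9 TPM with indisulam. It passed in none of these comparisons as deposited. With indisulam its lowest library was replicate 3, and SREBF2 was called lower there after median scaling. In H929 its direction turned with scaling: it was called higher after median scaling, by 0.13 (limma adjusted p = 0.0217), and lower with equal column totals (-0.19, limma adjusted p = 0.0028). SCAP, the escort of SREBP2, was lower in the H929 shRBM39 libraries, at 21.1 to 22.9 against 37.4 to 38.9 FPKM, a difference of -0.76 (adjusted p = 1.75e-08 by limma, SE 0.0483), or -0.62 relative to all genes. In MM1S it did not pass, at 25.8 to 29.6 against 30.0 to 37.6 TPM in the knockdown and 23.3 to 27.4 against 22.1 to 31.3 TPM with indisulam.

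The promoters of 4 of these genes are shown because 3 of them, INSIG1, FDPS and EBP, fell together with indisulam, and the remaining one, SREBF2, holds the sterol response element searched for. Each run is the 250 bases before the gene's start on its own strand, from RefSeq on GRCh38.p14, which is not stated to be the build used for the libraries. Capitals mark exact matches, on either strand, to TCACNCCAC (a form of the sterol response element that SREBP2 binds), CCAAT (the box of its partner NF-Y, read as ATTGG on the other strand) or CACGTG (an E-box). No marked match overlaps another motif.
INSIG1, chr7:155297628-155297877, plus strand: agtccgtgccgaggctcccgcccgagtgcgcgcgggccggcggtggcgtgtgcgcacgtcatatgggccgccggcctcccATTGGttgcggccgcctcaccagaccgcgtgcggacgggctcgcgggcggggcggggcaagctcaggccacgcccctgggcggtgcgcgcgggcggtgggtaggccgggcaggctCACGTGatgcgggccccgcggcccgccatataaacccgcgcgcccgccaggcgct
FDPS, chr1:155308616-155308865, plus strand: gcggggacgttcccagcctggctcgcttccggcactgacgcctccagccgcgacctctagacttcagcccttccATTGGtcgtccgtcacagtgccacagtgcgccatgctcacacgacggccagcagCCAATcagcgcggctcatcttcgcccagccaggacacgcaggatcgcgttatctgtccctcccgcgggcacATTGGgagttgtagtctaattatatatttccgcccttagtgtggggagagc
EBP, chrX:48521558-48521807, plus strand: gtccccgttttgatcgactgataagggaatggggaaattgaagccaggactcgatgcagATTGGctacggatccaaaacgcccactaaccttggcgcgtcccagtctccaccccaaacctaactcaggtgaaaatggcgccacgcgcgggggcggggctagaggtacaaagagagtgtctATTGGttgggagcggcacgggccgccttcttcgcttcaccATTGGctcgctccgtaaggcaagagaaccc
SREBF2, chr22:41832855-41833104, plus strand: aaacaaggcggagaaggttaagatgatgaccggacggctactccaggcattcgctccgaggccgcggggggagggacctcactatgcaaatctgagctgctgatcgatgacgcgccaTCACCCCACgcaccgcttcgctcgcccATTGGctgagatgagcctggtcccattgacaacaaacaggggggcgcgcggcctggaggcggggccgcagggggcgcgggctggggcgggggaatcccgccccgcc
FDPS and EBP each hold 3 CCAAT boxes in this window, INSIG1 holds 1 with 1 E-box, and SREBF2 holds TCACCCCAC and 1 CCAAT box. RefSeq promoters were matched for 25 of the 28 genes. CCAAT was in 19 of the 25 (76%), beside 37.0% of 27305 genes with a promoter in the table. TCACNCCAC was in 1 of 25, beside 1.09% of all genes, and CACGTG in 4 of 25, beside 7.73%. A match describes letters only, and sites of other forms or farther away were not searched.

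The last 4 genes handle sterol once it is made or taken up. STARD4 carries it between membranes, SOAT1 esterifies it for storage, MYLIP marks lipoprotein receptors such as VLDLR for degradation, and ABCA1 exports it. SOAT1 fell in the knockdown from 14.3 and 12.7 TPM to 6.42 and 4.29 TPM, a change of -1.21 (adjusted p = 0.0369 by limma, SE 0.224). H929 again had the opposite order, 4.62, 4.65 and 4 against 2.74, 3.14 and 2.48 FPKM, a difference of 0.52 (adjusted p = 6.88e-05 by limma, SE 0.0811), or 0.65 relative to all genes. With indisulam its values were 5.07, 4.81 and 5.24 against 9.02, 6.57 and 4 TPM, with replicates 1 and 2 above all DMSO libraries and replicate 3 below them (limma adjusted p = 0.482). STARD4 was the lowest member in H929 scramble libraries, at 0.821 to 1.12 FPKM in scramble and 2.17 to 2.34 FPKM in shRBM39 libraries (0.73, SE 0.076). It passed the filter on low values only through the shRBM39 libraries, where it is higher. The filter favoured that direction, so no p-value is given. ABCA1 was lower in H929, 6.9 to 9.94 against 13.7 to 14.2 FPKM (-0.63, limma adjusted p = 6.53e-05). In MM1S ABCA1 was scarce, at 0.76 to 1.03 TPM in DMSO and at 5.44 and 1.97 TPM with scramble, and passed in neither comparison. It met the filter through the scramble libraries in the knockdown table and, in the indisulam table, through 2 treated libraries and 1 DMSO library. MYLIP passed in none of the 3 as deposited, although its knockdown values, 11.1 and 10.6 against 1.8 and 6.53 TPM, did not overlap (limma adjusted p = 0.118). After median scaling MYLIP and TM7SF2 were called higher in H929 (0.31 and 0.28).

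Indisulam replicate 3 held the lowest value of its group for 22 of the 28 genes, the highest for 4 and a middle one for 2. The matching share of all genes was not computed, so the count is not read as particular to these genes. The 4 exceptions above the others were PMVK, MVD, NSDHL and EBP. Without that library, 17 members fell and 4 rose, beside 27.8% and 37.9% of 14238 genes tested (65.7% in all), and the median of all genes was 0.10. All 14 genes called with every library were lower in that fit too, and MVD (-0.57), GGPS1 (-0.36) and CYP51A1 (-0.30) were added. SC5D rose, at 12.3 and 13.5 TPM against 7.13 to 8.76 TPM in DMSO, by 0.66 (adjusted p = 0.0016 by limma, SE 0.108). SOAT1 rose by 0.53 (adjusted p = 0.0121 by limma, SE 0.136) and STARD4 by 0.49 (adjusted p = 0.022 by limma, SE 0.148). ABCA1, counted as the last of the 4, met the filter only through the indisulam libraries. The filter favoured that direction, so its difference of 0.68 (SE 0.145) is given without a p-value. For each of these 4, replicates 1 and 2 lay above all 3 DMSO libraries and replicate 3 at or below the lowest of them. EBP (-1.84), ACAT2 (-1.31), HSD17B7 (-1.26), INSIG1 (-1.25) and NSDHL (-1.12) had the 5 largest decreases in that fit, in log2, where SQLE had been the fifth with all libraries. HMGCS1 changed sign, from -0.24 to 0.15, and passed in neither fit. What sets replicate 3 apart was not tested.

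**Figure D3:**
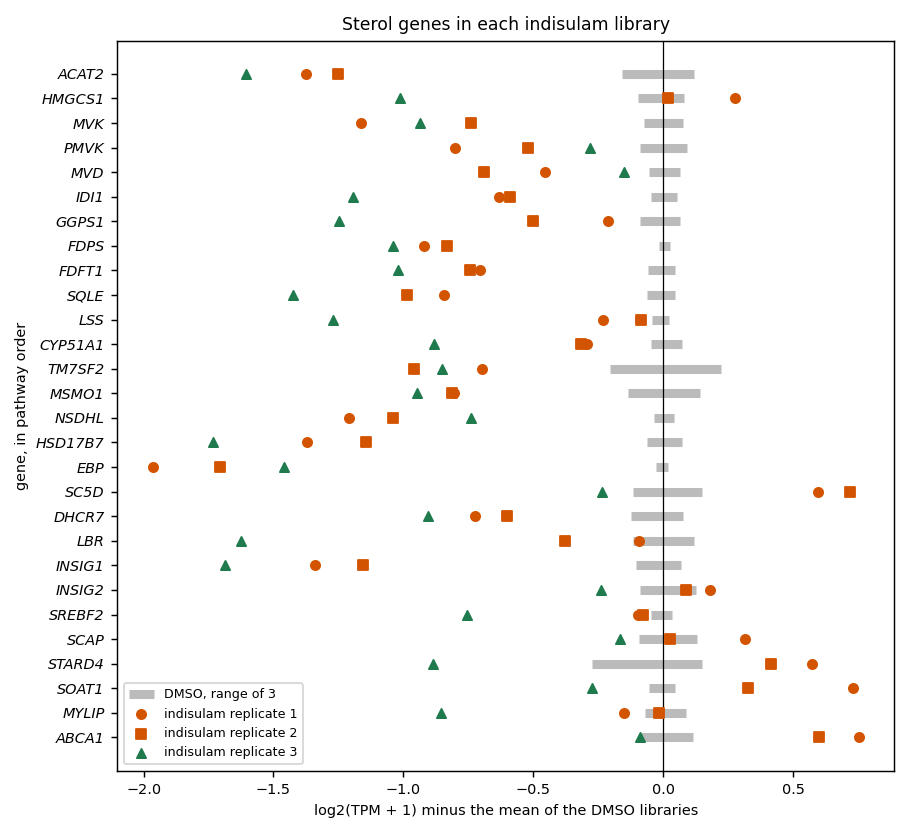
Each indisulam library set against DMSO in MM1S: log2(TPM + 1) minus the mean of the DMSO libraries (x axis) for the 28 genes in pathway order (y axis), with grey bars for the range of the 3 DMSO libraries. Circles and squares (replicates 1 and 2) lie close together, and the green triangle (replicate 3) lies to their left for 22 genes, on the other side of the DMSO range for STARD4, SOAT1 and SC5D.

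The wider pathway was read from 35 other genes of sterol control, uptake, isoprenoid use and lipid supply. With indisulam, 12 of the 33 tested fell and 1 rose, beside 21.5% and 8.47% of all genes, and without replicate 3 15 fell and 9 rose, beside 27.8% and 37.9%. VLDLR passed the filter on low values in all 3 comparisons only through the group where it was higher, so its calls had to take that direction. Its values are given without p-values, and the counts here include it. SOAT2, counted as lower with indisulam, met the filter there only through DMSO, at 1.95 to 2.44 against 0.70 to 0.98 TPM. VLDLR, a lipoprotein receptor, was at 4.3 ± 0.198 TPM in DMSO and 0.593 ± 0.301 TPM with indisulam (mean ± SD, n = 3 each), a difference of -1.75 (SE 0.188). ACAT1, the mitochondrial thiolase, fell with indisulam from 60.6 ± 0.55 to 31.1 ± 3.51 TPM, a difference of -0.95 (adjusted p = 0.0013 by limma, SE 0.115). NPC2, which carries cholesterol out of the lysosome, rose from 182 ± 2.67 to 227 ± 10.5 TPM (n = 3 each), a difference of 0.32 (adjusted p = 0.017 by limma, SE 0.0738). Without replicate 3 these differences were -1.60 for VLDLR, -0.86 for ACAT1 and 0.35 for NPC2. In the knockdown, 2 of 33 fell and 0 rose, a share close to the 6.35% of all genes that fell. Mean VLDLR was 0.93 ± 0.0566 TPM in shRBM39 libraries against 4.89 ± 0.523 TPM in control ones (n = 2 each). The filter fixed the direction of its difference, -1.61 (SE 0.216). NUS1 encodes a subunit of the enzyme that makes dolichol precursors. It fell from 30.9 ± 1.75 to 11.6 ± 2.58 TPM, a difference of -1.36 (adjusted p = 0.0216 by limma, SE 0.189). In H929, 13 of 31 were higher and 11 lower, beside 24.1% and 48.1% of all genes. The higher ones were led by NUS1, at 12.1 ± 0.467 against 2.58 ± 0.444 FPKM (n = 3 each), a difference of 1.88 (adjusted p = 7.16e-10 by limma, SE 0.0838). VLDLR was at 1.92 ± 0.462 against 0.415 ± 0.0806 FPKM, a difference of 1.04 (SE 0.105). The lower ones were led by MBTPS1, the protease that makes the first cut in SREBP2, at 32.9 ± 1.5 against 66 ± 0.849 FPKM, -0.98 (adjusted p = 1.06e-09 by limma, SE 0.0459), and STARD3, a late endosomal sterol carrier, at 18.2 ± 0.2 against 33.7 ± 1.28 FPKM, -0.86 (adjusted p = 5.52e-09 by limma, SE 0.0482).

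The RIP libraries asked which sterol gene RNAs came down with RBM39. With 1 library each, there is no replicate check and no test. Ratios are log2((RBM39 + 1)/(IgG + 1)) of FPKM. All 28 genes passed the filter of 1 FPKM in either library, 7 were at least 2-fold higher and 3 at least 2-fold lower with the RBM39 antibody, beside 22.7% and 23.9% of 10966 genes (46.6% past 2-fold in all). The members' median was -0.09, beside 0.02 for all genes. Read against those shares, 7 of 28 is close to the background and 3 of 28 is below it. INSIG1 RNA was by far the most abundant member in both libraries, at 845 FPKM with the RBM39 antibody and 454 FPKM with IgG, a log2 ratio of 0.89. The mevalonate arm held 3 of the 7 on the higher side, out of its 5 genes, beside 22.7% of all genes. MVD was at 9.15 FPKM and listed at 0 with IgG, MVK was at 9.54 against 1.62 FPKM (2.01), and PMVK at 160.0 against 55.1 FPKM (1.52). MVD met the filter only through the RBM39 library, so its direction was fixed, and the 7 and the 3 include it.

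On the same side, HSD17B7 was at 6.03 FPKM and listed at 0 with IgG, and SQLE was at 7.27 against 1.05 FPKM (2.01). HSD17B7, counted in the 7, also met the filter only through the RBM39 library, so its direction was fixed. NSDHL was at 10.8 against 1.94 FPKM (2.01) and MYLIP at 27.5 against 6.39 FPKM (1.95). Of the 7, 5 had an IgG value under 2 FPKM, a level at which the unknown depth leaves ratios imprecise. GGPS1, at 3.61 against 20.6 FPKM (-2.23), SC5D, at 1.38 against 5.85 FPKM (-1.53), and DHCR7, at 17.8 against 40.3 FPKM (-1.13), were the 3 on the lower side. The controls SREBF2 (0.18) and SCAP (-0.12) lay near 0, with values of 121 against 107 FPKM and 69.5 against 75.6 FPKM. Of the 6 genes with the largest indisulam decreases, HSD17B7 (its direction fixed by the filter), SQLE and NSDHL were past 2-fold higher as above, and INSIG1 was not. EBP was at 85.6 against 100.1 FPKM (-0.22) and ACAT2 at 13.3 against 17.1 FPKM (-0.34), also within 2-fold. RBM39's own transcript was at 62.1 FPKM with its antibody and 127 FPKM with IgG.

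**Figure D4:**
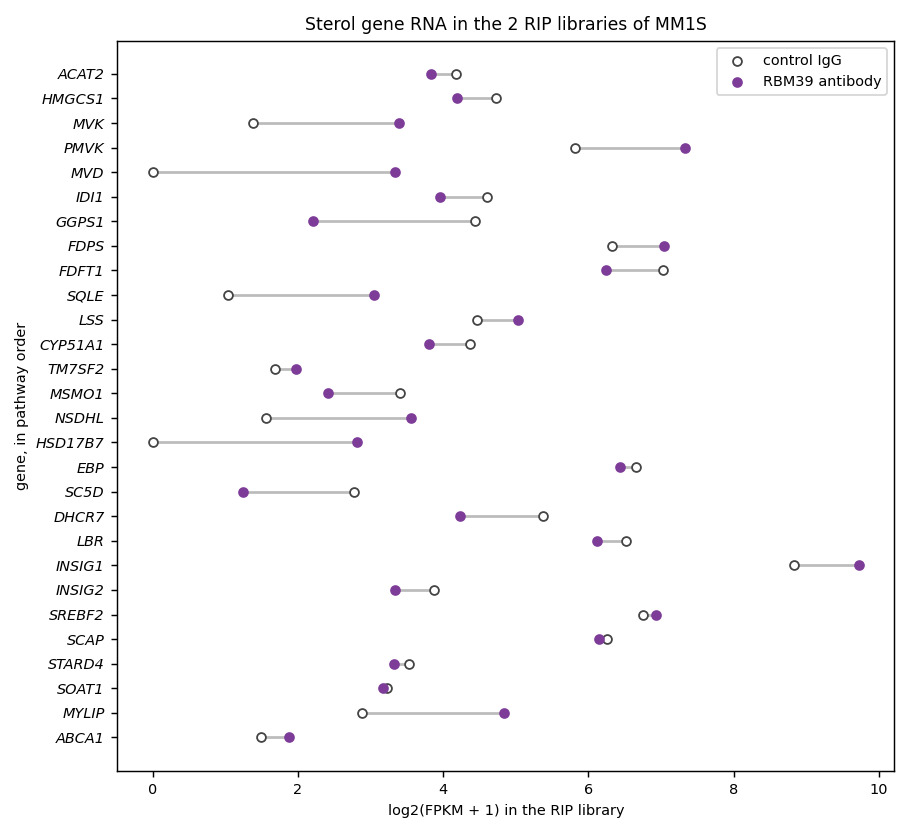
RNA level of the 28 genes (y axis, pathway order) in the 2 MM1S RIP libraries, as log2(FPKM + 1) (x axis), with open circles for control IgG, filled circles for the RBM39 antibody and a line between them. INSIG1 lies far to the right in both libraries, the filled circle is to the right for MVD, HSD17B7, MVK, SQLE, NSDHL, MYLIP and PMVK, and it is to the left for GGPS1, SC5D and DHCR7.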

How the data were processed

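Deposited values of 16 RNA-seq and 2 RIP libraries were used. Per the labels, they were SMARTER mRNA libraries of TRIzol RNA. Aligner and annotation were not given in the sources used here. GRCm38 and mm10, mouse builds, stand in the submitters' processing notes, although the cells and symbols are human. The H929 and RIP tables hold FPKM made by the authors, per the file names. Both MM1S tables are named FPKM too, but the deposited columns sum to 1000000, so they were treated as TPM and the planned test was kept. Tables were normalized separately and are not tested against each other. Rows without a gene name (834 in the knockdown and 473 in the indisulam table, up to 0.459% of TPM) were left out.

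Depth is unknown for MM1S and RIP. In H929, steps of low FPKM gave 0.974 to 1.15 times the depth of scramble replicate 1.

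Each table was fitted whole with limma 3.58.1 (trend and robust, R 4.3.3), two-sided, on log2(value + 1), which understates changes of low genes. Genes entered at 1 or more in at least the number of libraries of the smaller group, which all 28 members met, with Benjamini-Hochberg adjustment over all genes tested. The script was tested on simulated data. Members, lists and tests were chosen with earlier results of these data known. Library values are given for members called in at least 2 comparisons or called with a log2 difference of at least 1 in size, and for some others beside them. Up to 2 related genes per direction are named. Same-numbered libraries deviated together at r = -0.148 to 0.137, so the numbers were not used as pairs. Strand-specific counting is not stated, and 16 members overlap another RefSeq gene, such as ACAT2 with TCP1, so reads may be shared. Alternatives were a pseudocount of 0.1, no filter or a filter at 5, 3 scalings, plain limma, a replicate block and each library left out. Figures used Matplotlib 3.10.9.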

Additional observations from a re-analysis of the deposited data

Results flagged for a closer look

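For 14 of the 28 genes, every library labelled shRBM39 lay on one side of scramble in H929 and on the opposite side in the MM1S knockdown, beside 33.6% of 9496 genes tested in both lines. Another 7 lay on the same side in both, beside 14.8%. The 14 include STARD4, and the 7 include ABCA1. STARD4 in H929 and ABCA1 in the knockdown met the filter on low values only through the group where they were higher. The difference between the lines itself was not tested, since the tables were normalized separately. RBM39 transcript also lay in opposite directions, and the MM1S groups hold 2 libraries each. With groups ordered by RBM39 transcript instead of label, the 14 lay on the same side in both lines, beside the same 33.6%. The 7 then lay on opposite sides, beside the same 14.8%. Of the 14, 13 were higher in H929 and lower in MM1S, beside 14.3% of genes. Given as the H929 log2 difference and then the MM1S one, the synthesis genes were ACAT2 (0.39 and -1.05), PMVK (0.35 and -0.34), IDI1 (0.89 and -1.10), FDPS (0.48 and -0.76), CYP51A1 (0.65 and -0.55), MSMO1 (0.43 and -0.52), HSD17B7 (0.61 and -1.07), EBP (0.34 and -0.88) and LBR (0.16 and -1.16). INSIG1 was at 0.88 and -0.91, and the handling genes were STARD4 (0.73 and -0.68), SOAT1 (0.52 and -1.21) and MYLIP (0.15 and -1.37). Leaving out 1 library moved many of the MM1S values by over 1.5 times, for example to between -1.37 and -0.45 for INSIG1, -1.06 and -0.30 for STARD4, -2.08 and -0.66 for MYLIP and -0.87 and -0.23 for CYP51A1. SCAP had the reverse order, -0.76 and 0.27, which 19.4% of genes did. In MM1S, ACAT2, FDPS, HSD17B7, LBR and SOAT1 passed limma's test, and in H929 MYLIP did not. With equal column totals, LBR also did not pass in H929.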

How the results depend on the processing

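In H929 the count of members called lower was 9 as deposited, 4 after median scaling and 5 after quantile normalization, and it was 9 whichever library was left out; the count called higher ranged from 13 to 15 with a library left out and from 11 to 17 over the other settings. In the MM1S knockdown the 5 calls became 0 with no filter on low values, where 0 of all genes passed, and 0 to 4 with a library left out. With the replicate block, 0 of the members and 255 of all genes passed there, and with the crossed pairing, added after the data were seen, 1 and 772 did; other settings gave 4 to 6. The block moved no count of member calls in H929 or with indisulam. With indisulam the count called lower ranged from 11 to 17 with a library left out and from 13 to 17 otherwise, and that called higher from 0 to 4 with a library left out. The RIP counts ranged from 7 to 9 higher and from 2 to 4 lower.

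Members that were not called as deposited changed sign in some settings. In H929 these were GGPS1 (0.049 and 0.025), DHCR7 (0.055 and 0.063) and SREBF2 (0.13 and 0.072) after median scaling and quantile normalization, and TM7SF2 (-0.032) with equal column totals; in the knockdown SC5D was at 0.019 and 0.032 after median scaling and quantile normalization. With a library left out, the knockdown values ranged from -0.14 to 0.66 for MVD, -0.59 to 0.14 for LSS, -0.089 to 0.042 for SC5D, -0.71 to 0.28 for DHCR7 and -0.031 to 0.16 for INSIG2. The indisulam values ranged from -0.50 to 0.15 for HMGCS1, -0.074 to 0.13 for INSIG2, -0.069 to 0.17 for SCAP and -0.24 to 0.49 for STARD4. The cause of these changes was not tested.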
